A study of Mus musculus with 6 samples.

Results

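The MYC, MAX and MXD network was followed in RAW 264.7 cells given a plant polysaccharide. Its 10 members (Myc, Max, Mxd1, Mxd3, Mxd4, Mxi1, Mnt, Mga, Mlx and Mlxip) were taken by symbol from a table of 22192 genes. They were selected on symbol, and the family itself was proposed with its fold changes between these same libraries, ASPS-A1 over control, already known. Its values in this contrast are therefore a description, and no test is drawn from them. All 10 had a row in the table and all 10 were abundant enough to be among the 11686 genes tested.

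RAW 264.7 is a mouse macrophage-like line, labelled BALB/c and macrophage in every library. Cells of 3 libraries were given ASPS-A1, an acidic polysaccharide purified from the leaves of Acanthopanax senticosus, at 200 µg/mL for 24 h, and 3 libraries are labelled control, with nothing said of what the control medium held. The titles number the treated libraries A1, A2 and A3 while their treatment label is ASPS-A1 throughout, and that label set the groups. Should the titles name different fractions, these 3 libraries would not be replicates. Their SD and SE would then not measure replicate error, and p-values would not rest on it. Polyadenylated RNA was sequenced, and each value comes from a deposited count of reads per gene. Nothing in the labels says that libraries of a group came from separate cultures. The p-values therefore set group differences against the spread between these libraries, which may be technical.

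MYC proteins are transcription factors of the basic helix-loop-helix leucine zipper class that drive growth and division. They bind DNA only as pairs with MAX, at the E-box motif CACGTG, where they recruit co-activators. The MXD proteins, MNT and MGA pair with the same MAX and occupy the same motif, but MXD proteins and MNT bring SIN3 and histone deacetylases and repress. MLX is a second MAX-like partner, which pairs with the sugar-sensing factor MLXIP (MondoA) and with some MXD proteins. In myeloid cells MYC is high during proliferation, and MXD1 is known as a protein of differentiating cells.

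The libraries held 19989318 to 22179544 counts with ASPS-A1 and 23113454 to 26137127 counts in control, so the 2 groups did not overlap in depth. Of 10 macrophage markers, 9 lay at or above 24.5 CPM in every library (CPM, counts scaled to a common library size), and Mertk lay between 0.424 and 1.10 CPM. No marker of epithelium, fibroblasts, T cells, B cells, endothelium or neutrophils was abundant enough to test, and the highest, Col1a1, reached 0.239 CPM. Epcam, Cd3e, Cd3g, Ly6g and S100a9 had 0 counts in all 6 libraries.

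The motif bound by the network stands near the start of some of its own genes. RefSeq promoter windows (GRCm38.p6, from 250 bases before to 50 bases after a gene's start) were found for 9 of the 10 members, Myc being the one with no entry. CACGTG, which reads the same on both strands, occurred in the windows of 4 of these 9 members, and 11.8% of the 9277 tested genes with a window held it. The 4 stretches are shown because they place a site for the network on its own genes, with members of opposite change among them. Each is 60 bases, 5′ to 3′ on the gene's strand, with the motif in capitals.
Mxd4 (chr5:34187897-34187956, minus strand): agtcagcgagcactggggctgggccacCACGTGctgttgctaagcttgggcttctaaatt
Mnt (chr11:74830774-74830833, plus strand): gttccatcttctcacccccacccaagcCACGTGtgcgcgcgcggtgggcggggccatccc
Mlx (chr11:101087223-101087282, plus strand): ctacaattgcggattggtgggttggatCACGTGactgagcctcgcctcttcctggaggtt
Max (chr12:76962219-76962278, minus strand): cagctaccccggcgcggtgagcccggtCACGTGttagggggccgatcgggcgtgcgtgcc
The motif began 219 bases before the start in Mxd4, 123 bases in Mnt, 40 bases in Mlx and 3 bases in Max, where it crosses the start. The windows of Mxd1, Mxd3, Mxi1, Mga and Mlxip did not hold these letters. A match is a description of sequence, and no binding was measured.

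Myc was higher with ASPS-A1 and the transcripts of the MXD and MNT repressors, Mxd1, Mxd3, Mxd4, Mxi1 and Mnt, were lower. Myc was 4.45-fold higher and Mxd4 5.78-fold lower, while Max itself moved little. The partner Mlx was 1.72-fold higher. In the fit over all genes (edgeR quasi-likelihood, Benjamini-Hochberg adjusted p under 0.05), 2 members were past the threshold as higher, 7 as lower and 1, Max, was not past it. When exon length and GC content were entered as offsets, 5 were lower, Mga and Mlxip being past it no longer, and without ASPS-A1 replicate 2 there were 3 higher, Max (log2 fold change 0.13) then being past it. Of all genes tested, 65.3% were past that threshold, 32.4% higher and 33.0% lower, or 21.6% higher and 46.7% lower with scaling by library totals alone. With the length and GC offsets 32.5% of 11374 genes were called higher and 30.6% lower. Nothing is read from the members' count, since they were chosen with this contrast known. The groups did not overlap for 9 of the 10 members, 2 higher and 7 lower, and for 68.5% of all genes tested, 33.7% higher and 34.8% lower. The median log2 fold change was −0.42 over the members and −0.02 over all genes tested.

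**Figure D1:**
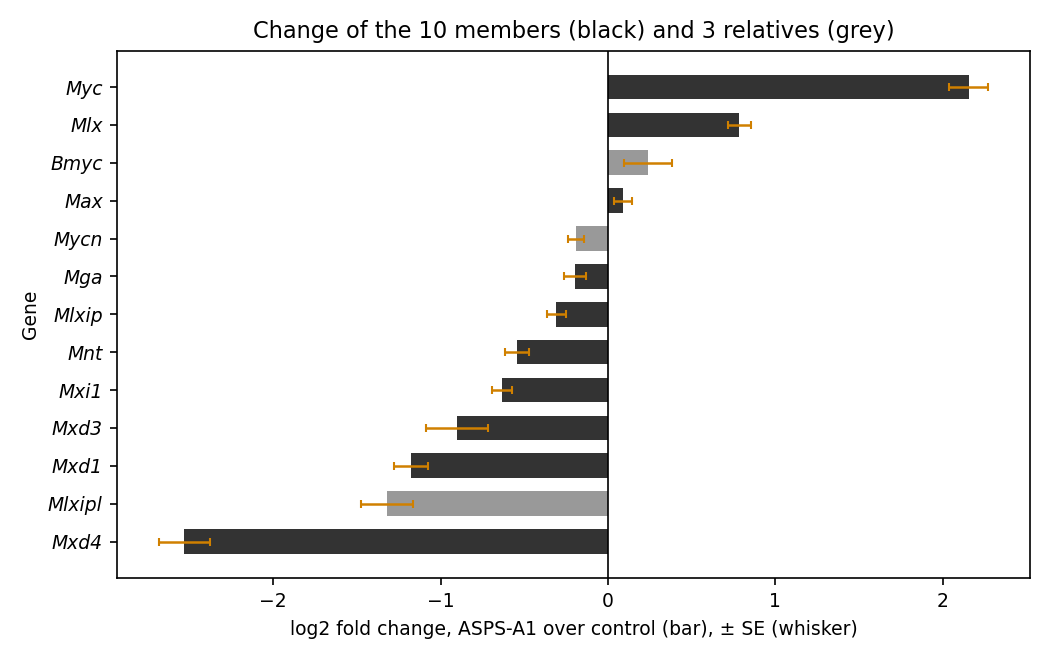
Log2 fold change of each gene, ASPS-A1 over control (bars), with its standard error (whiskers), for the 10 members in black and the relatives Mycn, Mlxipl and Bmyc in grey. Myc (2.16) stands at the top and Mxd4 (−2.53) at the bottom, with Max near 0.

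Myc encodes c-MYC, the activator that names the network. It had 30.4, 25.3 and 22.7 CPM in the ASPS-A1 libraries, against 6.53, 5.50 and 5.60 CPM in the control libraries. Every ASPS-A1 library lay well above every control library, with ASPS-A1 replicate 1 the highest. The log2 fold change was 2.16 ± 0.12 (SE), and 65 of the 11686 tested genes had one at least as high. The spread between ASPS-A1 libraries (coefficient of variation 14.9%) was wider than counting alone gives at this depth (4.43%). In control the spread was 9.72%, against 8.06% from counting. Without ASPS-A1 replicate 1 the log2 fold change was 2.03. In a bulk library, more Myc RNA per cell and more cells that express it cannot be told apart.

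Max encodes the partner shared by MYC, the MXD proteins, MNT and MGA. It had 118, 108 and 118 CPM with ASPS-A1 and 108, 112 and 103 CPM in control. The groups overlapped, since ASPS-A1 replicate 2 lay below control replicate 2. The log2 fold change was 0.09 ± 0.05 (SE). Its sign depended on the scaling: library totals alone moved the median of all genes by −0.20 on the log2 scale and gave Max −0.10, and offsets for transcript length and GC content gave −0.08.

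Mxd4 encodes MAD4, one of the MXD repressors, which are known from differentiating and resting cells. It had 2.29, 2.55 and 2.86 CPM with ASPS-A1, against 14.7, 15.8 and 14.0 CPM in control. The lowest control library was far above the highest ASPS-A1 library. The log2 fold change was −2.53 ± 0.15 (SE), and 36 of the 11686 tested genes had one at least as low. The ASPS-A1 value rests on 149 counts over 3 libraries, against 1168 counts in control. The spread between ASPS-A1 libraries (11.1%) was no wider than counting alone (14.2%). In the GENCODE mouse annotation 13.2% of the Mxd4 exon length is shared with Gm42846 on the opposite strand, which was not analysed here.

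Mxd1 encodes MAD1, the founding MXD repressor. It had 13.1, 10.7 and 11.8 CPM with ASPS-A1 and 25.8, 29.0 and 25.7 CPM in control. The groups stood apart, and the log2 fold change was −1.18 ± 0.10 (SE). Mxd3 encodes MAD3, which unlike the other MXD proteins is known from cells in S phase. It had 3.58, 3.48 and 2.86 CPM with ASPS-A1 and 7.10, 5.65 and 5.85 CPM in control. Again no library crossed over, with a log2 fold change of −0.90 ± 0.18 (SE). Of the Mxd3 exon length 7.91% is shared with Prelid1 on the opposite strand, and Prelid1 rose, at 404 CPM with ASPS-A1 against 347 CPM in control (log2 fold change 0.22, adjusted p = 5.81e-05, edgeR).

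Mxi1, also called MAD2 or MXD2, was the most abundant of the MXD repressors. It had 72.6, 63.9 and 69.8 CPM with ASPS-A1 and 107, 112 and 101 CPM in control. Mnt encodes a repressor that is present in growing and resting cells alike and is regarded as a constant counterweight to MYC. It had 37.2, 39.5 and 32.9 CPM with ASPS-A1 and 54.4, 51.3 and 54.0 CPM in control. Both were lower in every ASPS-A1 library than in any control library. The log2 fold changes were −0.63 ± 0.06 (SE) for Mxi1 and −0.54 ± 0.07 (SE) for Mnt. With the length and GC offsets they were −0.40 for Mxi1 and −0.27 for Mnt.

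Mga encodes a very large factor with a T-box and a helix-loop-helix domain that pairs with MAX inside a variant Polycomb complex. It had 48.8, 46.1 and 51.6 CPM with ASPS-A1 and 54.9, 58.2 and 55.1 CPM in control. The groups did not overlap, but the gap was small, with a log2 fold change of −0.20 ± 0.07 (SE). Mga has the longest merged exons of the members (13931 nt), and log2 fold change was negatively related to exon length, with a Spearman correlation of −0.379 across 11374 genes that are not independent of each other. With the length and GC offsets the Mga value turned to 0.01.

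Mlx and Mlxip form the glucose-sensing arm of the network and went opposite ways. Mlx had 54.5, 56.6 and 58.2 CPM with ASPS-A1 and 33.4, 31.7 and 33.1 CPM in control. Mlxip had 71.2, 63.3 and 70.0 CPM with ASPS-A1 and 81.9, 85.4 and 85.8 CPM in control. Mlx was higher in every ASPS-A1 library and Mlxip lower in every one. The log2 fold changes were 0.79 ± 0.07 (SE) for Mlx and −0.31 ± 0.06 (SE) for Mlxip. The Mlxip value was −0.02 with the length and GC offsets and −0.50 with library totals alone. For Mlx, 19.4% of the exon length is shared with Psmc3ip on the opposite strand. Psmc3ip rose as well, to 25.5 CPM with ASPS-A1 against 14.3 CPM in control (log2 fold change 0.83, adjusted p = 5.08e-10, edgeR). Whether the counting used strand is not stated, so reads of that stretch cannot be told apart, and its part in the Mlx value was not tested.

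Per length of merged exons, the members spanned a wide range of levels, and Myc changed its place among them. Max was the most abundant in all 6 libraries, at 58.6 ± 3.05 CPM per kb with ASPS-A1 and 55.0 ± 2.15 CPM per kb in control (SD, n = 3 each). Myc took rank 3, 3 and 4 of 10 in the ASPS-A1 libraries, at 12.4, 10.3 and 9.26 CPM per kb, and was last in every control library, at 2.67, 2.25 and 2.29 CPM per kb. Mxd4 was last in every ASPS-A1 library, at 0.662 ± 0.0734 CPM per kb, and next to last in every control library, at 3.82 ± 0.233 CPM per kb. With ASPS-A1, Myc and Mxi1 (10.3 ± 0.668 CPM per kb) changed places between libraries, as did Mnt with Mlxip and Mxd1 with Mxd3. In control the neighbours Mlx (16.5 ± 0.432 CPM per kb) and Mxi1 changed places, while Mga (4.02 ± 0.134 CPM per kb) lay above Mxd4 in every library. These ranks depend on the division by length. In CPM, Myc lay below Max, Mxi1, Mlxip, Mlx, Mga and Mnt in every ASPS-A1 library, and was still last in every control library.

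**Figure D2:**
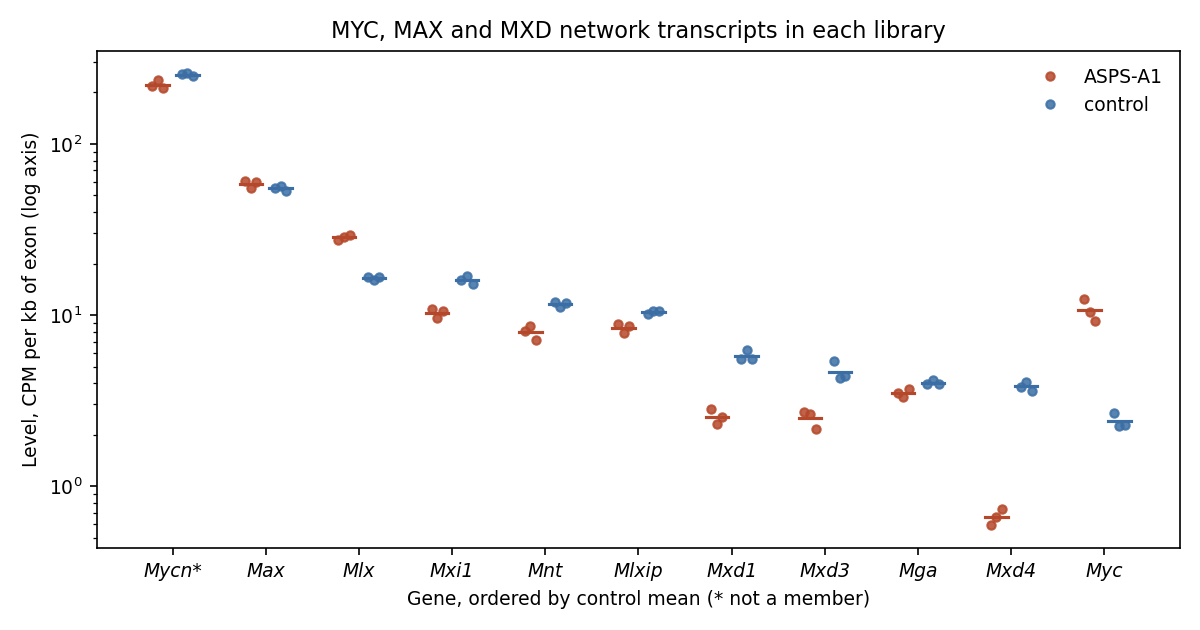
Level of each of the 10 members and of Mycn (marked *, not a member) in CPM per kb of merged exon on a log axis. Points are the libraries, with ASPS-A1 left of control for each gene, and bars are group means. Per kb, Myc has rank 3 or 4 among members with ASPS-A1 and the last in control, Mxd4 is the lowest with ASPS-A1, and Mycn lies above every member in both groups.

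Set against each antagonist within a library, a ratio that scaling between libraries does not enter, Myc lay above Mxd4, Mxd1, Mxd3, Mga and Mnt in every ASPS-A1 library and below them in every control library, with all levels per kb of merged exons. In CPM, with no division by length, Myc lay below Mnt and Mga in every ASPS-A1 library. The Myc to Mxd4 ratio per kb was 21.0, 15.7 and 12.6 in the ASPS-A1 libraries, against 0.704, 0.552 and 0.635 in the control libraries. The Myc to Mxd1 ratio was 4.43, 4.51 and 3.68 with ASPS-A1 and 0.483, 0.362 and 0.415 in control. The ratio to Mxd4 differed most between the groups and varied most between ASPS-A1 libraries. Myc to Mxd3 was 4.28 ± 0.325 with ASPS-A1 and 0.515 ± 0.0146 in control, and Myc to Mga was 3.06 ± 0.524 with ASPS-A1 and 0.598 ± 0.0721 in control (SD, n = 3 each). Myc to Mnt was 1.34 ± 0.170 with ASPS-A1 and 0.207 ± 0.0163 in control. Per kb, Mxi1 was the antagonist nearest to Myc with ASPS-A1, where the ratio was 1.14, 1.08 and 0.883, against 0.167, 0.134 and 0.150 in control. These are ratios of transcripts, and no protein was measured.

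Summed over Mxd1, Mxd3, Mxd4, Mxi1 and Mnt, the antagonist transcripts reached 24.0 ± 1.02 CPM per kb with ASPS-A1 and 41.9 ± 1.18 CPM per kb in control (SD, n = 3 each). The ratio of Myc to this sum was 0.494, 0.435 and 0.401 with ASPS-A1, against 0.0628, 0.0528 and 0.0565 in control, so Myc stayed below the sum in all 6 libraries. The difference in the log2 ratio was 2.95, with means of −1.18 with ASPS-A1 and −4.13 in control and a pooled SD of 0.139 between libraries. The makeup of the pool differed too. Mxi1 and Mnt together made up 76.3% ± 0.477 of it with ASPS-A1 and 66.0% ± 0.562 in control, while Mxd4 made up 2.77% ± 0.420 with ASPS-A1 and 9.13% ± 0.379 in control. Max exceeded the summed antagonists 2.45-fold ± 0.150 with ASPS-A1 and 1.31-fold ± 0.0242 in control.

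**Figure D3:**
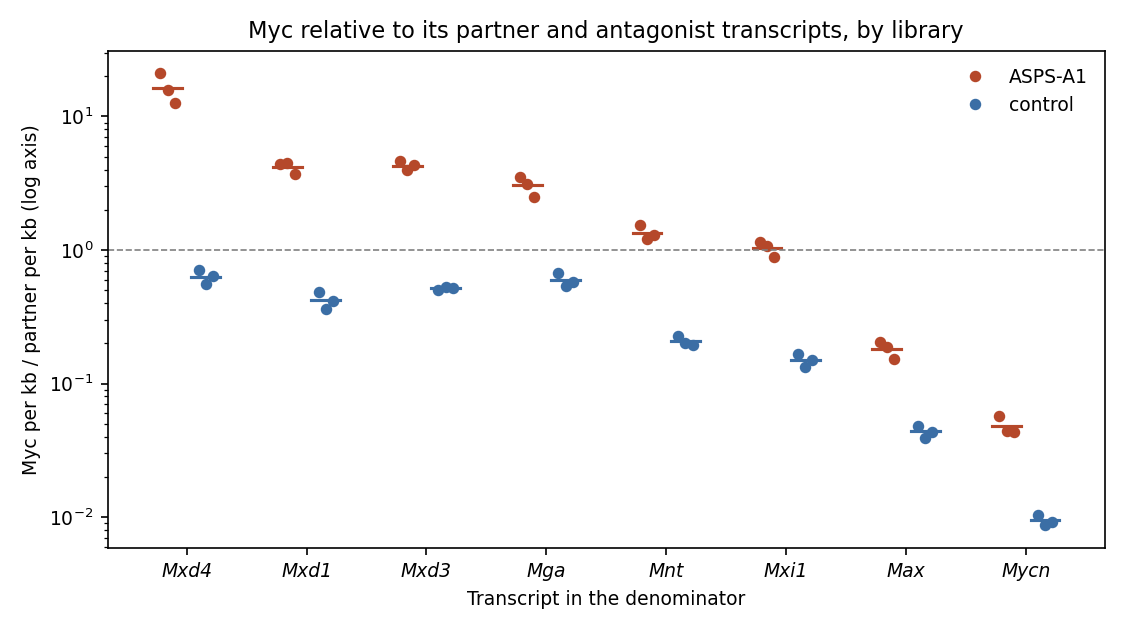
Level of Myc per kb divided by the level per kb of each partner or antagonist, by library, on a log axis, with ASPS-A1 left of control and bars at group means. The dashed line marks equal levels. Against Mxd4, Mxd1, Mxd3, Mga and Mnt all ASPS-A1 libraries lie above the line and all control libraries below it, and against Max and Mycn all 6 libraries lie below it.

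Outside the members, the most abundant MYC-family transcript in these cells was Mycn, which encodes N-MYC, a paralog that also pairs with MAX. It had 611, 661 and 599 CPM in the ASPS-A1 libraries, against 717, 725 and 696 CPM in the control libraries. All ASPS-A1 libraries lay below all control libraries, and Mycn fell by 0.19 ± 0.05 (SE) on the log2 scale (adjusted p = 0.000470, edgeR). Per kb, Mycn was 21.1-fold ± 3.08 as abundant as Myc with ASPS-A1 and 106-fold ± 9.84 in control (SD, n = 3 each). Myc made up 4.58% ± 0.693 of the Myc and Mycn transcripts together with ASPS-A1 and 0.936% ± 0.0883 in control. With Mycn added to Myc, an alternative chosen after seeing the data, the difference in the log2 ratio to the antagonists was 0.66 in place of 2.95. That combined ratio was 9.18, 10.3 and 9.65 with ASPS-A1 and 6.07, 6.13 and 6.18 in control. Per kb, Myc and Mycn together exceeded Max 3.99-fold ± 0.415 with ASPS-A1 and 4.67-fold ± 0.0867 in control. How reads that fit both paralogs were counted is not given.

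The other relatives were scarce. Mlxipl encodes ChREBP, the paralog of MLXIP that also works with MLX, and it fell to 3.91, 3.53 and 4.56 CPM with ASPS-A1, against 9.60, 10.1 and 10.3 CPM in control (log2 fold change −1.32, adjusted p = 3.12e-10, edgeR). Bmyc was not past the threshold, at 8.21 ± 0.320 CPM with ASPS-A1 and 6.94 ± 0.477 CPM in control, and 62.8% of its exon length is shared with a gene on the opposite strand. Mycl had 2 counts in all with ASPS-A1 and 0 in control and was not tested. Bmyc and Mycl are named after their values were seen.

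By correlation of log2 CPM over the 6 libraries, the genes most like Myc were Arfrp1 (Pearson r = 0.9994), Recql4 (0.9991), Gnb1 (0.9990), Rnpep (0.9985) and Trpv2 (0.9985). Those most like Mxd4 were Gbe1 (0.9993), Rbl2 (0.9993), Tm9sf2 (0.9991), Gpatch8 (0.9991) and Rab18 (0.9988). The 6 libraries form 2 groups, so any gene with a clear difference between them correlates highly. Of 8207 genes compared, 1819 had r above 0.95 with Myc.

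Most of the genes listed as MYC targets in ribosome production rose. Of 34 such genes, 27 rose, 0 fell and 7 missed the threshold (79.4% called, against 65.3% of all genes). Their median log2 fold change was 0.45, against −0.02 over all genes tested. Imp4, a protein of the small-subunit processome, rose 2.04-fold, to 29.5 ± 3.49 CPM with ASPS-A1 against 14.5 CPM in control (adjusted p = 8.80e-13, edgeR). Mrto4, an assembly factor of the large subunit, rose 1.97-fold (adjusted p = 2.97e-17), and Mybbp1a, a nucleolar MYB-binding protein, rose 1.69-fold (adjusted p = 9.07e-19). With library totals alone 20 of the 34 rose and 3 fell, where 21.6% of all genes were called higher and 46.7% lower. With the length and GC offsets 26 rose and 2 fell, where 32.5% of all genes were called higher and 30.6% lower, and the median was 0.36. CACGTG was found in the promoter windows of 10 of the 29 list genes that had one (34.5%), against 11.8% of tested genes. Shares of this kind, here and in the lists below, describe sequence in genes chosen as known targets. They are not tied to the contrast.

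MYC targets of metabolism, translation and the cell cycle moved in both directions. Of 30, 18 rose, 7 fell and 5 missed the threshold (83.3% called, against 65.3% of all genes), and the median was 0.48. Slc7a5, a carrier of large neutral amino acids, rose 2.25-fold (155 ± 6.01 CPM with ASPS-A1, 69.0 CPM in control, adjusted p = 2.78e-22, edgeR). The mitochondrial chaperonin subunit Hspe1 (log2 fold change 1.05), which has pseudogene copies, and the spermidine synthase Srm (0.94) also rose. Hk2, a hexokinase, had 23.4 CPM with ASPS-A1 and 119 CPM in control, for a log2 fold change of −2.35 at an adjusted p of 5.36e-31. The G1 cyclin Ccnd2 (−0.92) and the telomerase subunit Tert (−0.60) also fell. In this list CACGTG was found in 8 of 26 genes with a window (30.8%), against 11.8% of tested genes.

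Genes known to be repressed by MYC did not share a direction. Of 11, 8 were abundant enough to test, and of these 3 rose and 5 fell (100% called, against 65.3% of all genes). Gadd45a, a growth arrest gene, rose 3.36-fold and Fth1, the ferritin heavy chain, rose 2.69-fold. Fth1 has pseudogene copies, and 19.5% of the Gadd45a and 19.2% of the Ndrg1 exon length is shared with genes on the opposite strand, so these values are less certain. Ndrg1 (log2 fold change −0.72), the CDK inhibitor Cdkn1b, which encodes p27 (−0.67), and Cdkn1a, which encodes p21 (−0.49), fell. For Cdkn1a 273 of 2718 exon bases are shared with a gene on the opposite strand. Cdkn1b had 45.5 ± 3.49 CPM with ASPS-A1 and 72.5 CPM in control. Of the 11, 8 had a promoter window, and 0 of these held CACGTG.

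Of 6 targets of MLXIP and MLX, 5 were tested, 3 fell and 0 rose, with a median log2 fold change of −0.76. The 3 called genes are 60.0% of those tested, near the 65.3% of all genes. Txnip, whose exons share 21.4% of their length with Gm15441 on the opposite strand, is a thioredoxin inhibitor that limits glucose uptake and is the classic MondoA target. It had 2059 ± 35.5 CPM with ASPS-A1 and 3483 CPM in control (log2 fold change −0.76, adjusted p = 1.64e-18, edgeR). Klf10 (−1.24) and Hk2 (−2.35) fell as well. Hk2 also stands in the list of growth targets, as does Ldha. Ldha (−0.03, adjusted p = 0.565) and Pfkfb3 (−0.08, adjusted p = 0.197) were not past the threshold and are named here after their values were seen. With library totals alone all 5 fell, where 46.7% of all genes were called lower. With the length and GC offsets 4 fell and 1 rose, where 30.6% of all genes were called lower and 32.5% higher. Arrdc4 had 1 count in each group. CACGTG was found in 3 of the 5 list genes with a promoter window (60%), against 11.8% of tested genes.

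**Figure D4:**
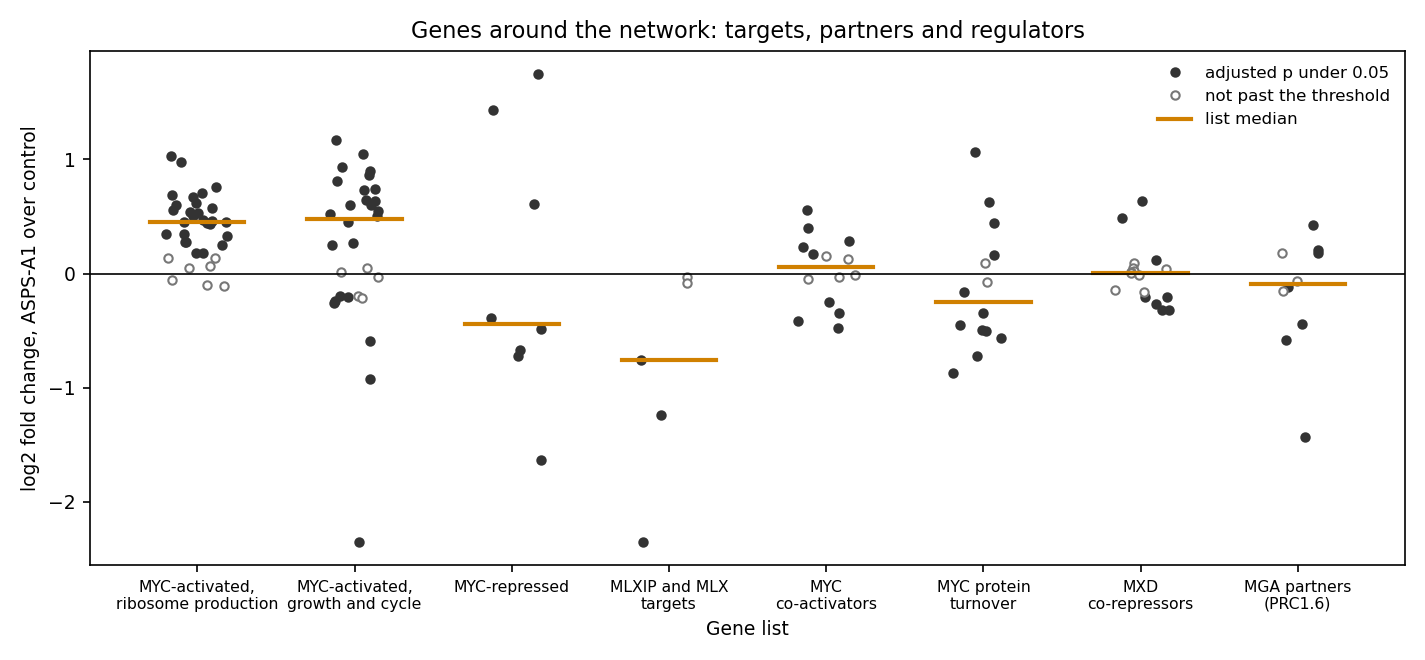
Log2 fold change, ASPS-A1 over control, of each tested gene in 8 lists around the network. Filled points passed an adjusted p of 0.05 (edgeR), open points did not, horizontal spread within a list is only for display, and orange bars are list medians. Ribosome production targets have a median of 0.45 and no gene past the threshold as lower. MLXIP and MLX targets have a median of −0.76, and MXD co-repressors lie around 0.

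Genes that act on MYC protein moved both ways, and 12 of 14 were past the threshold (85.7%, against 65.3% of all genes). Of the 14, 4 rose and 8 fell, with a median of −0.25. Pim1, a kinase that stabilises MYC and shares 468 of its 3111 exon bases with Gm26885 on the opposite strand, rose to 207 CPM with ASPS-A1, against 98.5 CPM in control (log2 fold change 1.07, adjusted p = 5.37e-23, edgeR). The kinase Gsk3b (log2 fold change 0.45), which marks MYC for destruction, also rose. Fbxw7, the ubiquitin ligase subunit that recognises MYC so marked, fell by 0.87 on the log2 scale (adjusted p = 8.04e-08). Pim2 (−0.73) and the ubiquitin ligase Huwe1 (−0.57) also fell.

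Co-activators and other partners of MYC were divided, with 5 of 14 risen, 4 fallen and 5 short of the threshold. Of the 14, 64.3% were called, near the 65.3% of all genes, and the median was 0.05. The helicase Ruvbl1 (log2 fold change 0.56), the partner zinc-finger factor Zbtb17, known as MIZ1 (0.40), and Paf1 (0.28) rose. Ep400 (−0.48), the cyclin Ccnt1 (−0.41) and the scaffold Trrap (−0.35) fell. Paf1 had 0.09 with library totals alone (adjusted p = 0.273). With the length and GC offsets Paf1 had 0.13 (adjusted p = 0.0807) and Trrap −0.05 (adjusted p = 0.422), while Ep400 and Ccnt1, at −0.20 each, were still past the threshold. With library totals alone 2 rose (14.3%) and 7 fell (50%), against 21.6% higher and 46.7% lower over all genes.

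Co-repressors that serve the MXD proteins and MNT mostly were not past the threshold. Of 17, 3 rose, 5 fell and 9 were not called (47.1% called, against 65.3% of all genes), with a median of 0.00. The deacetylase Hdac1 had 84.4 ± 5.16 CPM with ASPS-A1 and 54.2 CPM in control (log2 fold change 0.64, adjusted p = 1.10e-12, edgeR), and the scaffold Sin3b rose too (0.48). The chaperone Rbbp7 had 0.11, against −0.08 with library totals alone and −0.04 with the length and GC offsets. Arid4a (−0.32), Sap18 (−0.32) and the nuclear receptor co-repressor Ncor1 (−0.27) fell. None of these 3 was past the threshold with the offsets, where Arid4a had −0.16 (adjusted p = 0.138), Sap18 −0.14 (adjusted p = 0.282) and Ncor1 −0.005 (adjusted p = 0.932). Rbbp7 lost the call without ASPS-A1 replicate 3, control replicate 1 or control replicate 2, Sap18 without ASPS-A1 replicate 3 or control replicate 1, and Arid4a without control replicate 3. With library totals alone 2 rose and 12 fell, where 21.6% of all genes were called higher and 46.7% lower. With the offsets 6 rose and 2 fell, where 32.5% of all genes were called higher and 30.6% lower. Without control replicate 1 there were 3 fallen genes.

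Partners of MGA in the variant Polycomb complex were also split, with 3 of 10 risen, 4 fallen and 3 short of the threshold. Of the 10, 70% were called, near the 65.3% of all genes, and the median was −0.09. Yaf2 (log2 fold change 0.42), the ubiquitin ligase Rnf2 (0.20) and Rybp (0.18) rose. Tfdp2 (−1.43), the methyl-lysine reader L3mbtl2 (−0.58) and Pcgf6 (−0.45), which defines the complex, fell. Rnf2 was not past the threshold without control replicate 3 (0.14, adjusted p = 0.0542). With library totals alone 1 of the 10 rose, against 21.6% of all genes called higher, with Rybp at −0.01 and Rnf2 at 0.01. With the length and GC offsets 3 rose and 6 fell, with a median of −0.20, where 30.6% of all genes were called lower.

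Among other factors that bind E-box type sites more fell than rose. Of 13 tested, 3 rose, 7 fell and 3 missed the threshold (76.9% called, against 65.3% of all genes), with a median of −0.13. The circadian and hypoxia-responsive repressor Bhlhe40 had 39.8 CPM with ASPS-A1 and 119 CPM in control (log2 fold change −1.58, adjusted p = 6.75e-27, edgeR). Its paralog Bhlhe41 (−1.56), which shares 13.7% of its exon length with a gene on the opposite strand, and the clock activator Bmal1 (−0.63) also fell. Hif1a (0.17), Usf1 (0.16) and Tfe3 (0.14) rose by small amounts. Usf1 was not past the threshold when any library other than control replicate 1 was left out, nor was Tfe3 without ASPS-A1 replicate 2, control replicate 1 or control replicate 3. With library totals alone none of these 3 rose, where 21.6% of all genes were called higher. Hif1a then had −0.02, Usf1 −0.04 and Tfe3 −0.05. The count of risen genes was 1 when ASPS-A1 replicate 2 or control replicate 3 was left out, and 1 with no filter on low counts, where 23.2% of 16308 genes were called higher.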

How the data were processed

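RNA of 6 RAW 264.7 libraries, 3 per group, was analysed from counts per gene symbol that the authors deposited with no normalization, per the file headers. Per the submitters' processing notes the tools include HISAT2 2.1.0, HTSeq 0.9.1, DESeq 1.38.3 and fastp 0.22.0. Build, annotation and strand handling: not given in the sources used here.

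Genes were kept with filterByExpr (minimum count 10, minimum total 15), scaled with TMM factors and fitted by group with glmQLFit (robust) of edgeR 4.0.16 in R 4.3.3. The test was two-sided, adjusted by Benjamini-Hochberg over all genes tested, with a threshold of 0.05. CPM use the scaled library sizes. Standard errors were taken as the size of the log2 fold change over the root of the F statistic. Levels per kb use merged exons of the GENCODE mouse annotation, matched by symbol or synonym for 20136 of 22192 genes. The fit was also run on simulated data, in which far fewer genes changed than were called here. No length trend was put in, so that run does not bear on scaling or length.

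The members and lists were chosen with earlier results of these data known. The text names all members and from each list up to 3 called genes per direction with the largest change and at least 10 CPM in the higher group. A gene that this rule names is not reported here. Alternatives were other size factors, DESeq2 1.42.0, limma-voom (limma 3.58.1), other filters, the library number as a block, each library left out in turn, and lowess offsets (span 0.3) for exon length and GC content. Promoter sequences are from RefSeq. Protein sequences of the members were not used here. Between libraries of a group, chi-square per degree of freedom was 4.35 to 7.11, beyond sampling noise.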

Additional observations from a re-analysis of the deposited data

How the results depend on the processing

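Direction and side of the threshold of the named genes and counts were mostly kept. Scaling by library totals alone, which lowers all changes by about 0.20 on the log2 scale, turned Max to −0.10, Hif1a to −0.022, Usf1 to −0.038, Tfe3 to −0.053, Rbbp7 to −0.081 and Rybp to −0.014. With that scaling 21.6% of all genes were called higher and 46.7% lower. It left 0 risen E-box factors, 2 risen and 7 fallen co-activators and partners of MYC, and 12 fallen co-repressors. It also left 1 risen partner of MGA, 3 fallen ribosome production targets and 5 fallen MLXIP and MLX targets. The length and GC offsets turned Max to −0.084, Mga to 0.014, Bmyc to −0.14 and Rbbp7 to −0.038. With these offsets 32.5% of all genes were called higher and 30.6% lower. The offsets gave 6 risen and 2 fallen co-repressors, 2 fallen ribosome production targets and 1 risen MLXIP and MLX target. They gave 2.72 for the log2 ratio of Myc to the summed antagonists. The cause was not tested. That ratio was 0.66 with Mycn added to Myc, and ran from 2.87 to 3.02 when each library was left out in turn. No filter on low counts left 1 risen E-box factor, where 23.2% of all genes were called higher. Leaving out each library in turn gave 1 to 2 risen E-box factors and 3 to 5 fallen co-repressors.

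The library numbers share only a number: correlations of deviations between same-numbered libraries were −0.0138, 0.00709 and 0.00398, and none of the 3 ASPS-A1 libraries was nearest to the control library that has its number. With a replicate block 3746 genes were higher and 3807 lower, in place of 3783 and 3852, the members stood at 2 higher and 7 lower, and Usf1 was no longer past the threshold (0.16, adjusted p = 0.0515). Depth limits the scarce members most: Mxd4 rests on 149 counts and Mxd3 on 193 counts over the ASPS-A1 libraries.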
